A study of Rattus norvegicus with 9 samples.

Results

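The smooth muscle contractile genes are a set of 10 genes, named here as *Acta2*, *Actg2*, *Tagln*, *Cnn1*, *Myh11*, *Myocd*, *Smtn*, *Lmod1*, *Cald1* and *Mylk*. A gene was taken as measured where a probe set of the array carried its symbol and no other symbol. By this rule 9 of the 10 genes were measured, each by 1 probe set, among 14324 gene symbols and 27342 probe sets in all, and *Acta2* is not analysed here. RNA came from rat aortic smooth muscle cells (RASMC), cultured cells of the aortic wall that were made quiescent in DMEM with 0.2% serum for 24 hr. These cells were then kept for 6 hr in K+-free DMEM, in DMEM with 3 mM ouabain, or in control DMEM, after all had been washed with K+-free DMEM. Each condition had 3 Affymetrix Rat Gene 1.0 ST arrays, described as independent experiments in the methods. Ouabain is a cardiotonic steroid that binds the catalytic subunit of the Na+,K+-ATPase and stops it, and removal of external K+ takes away the ion that the same pump carries inward. The comparisons therefore ask how the contractile genes stand in cells whose pump was inhibited in either way. Because both treatments were set against the same 3 control arrays, the differences of a gene in K+-free DMEM and in ouabain are not independent of each other.

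Contraction of smooth muscle depends on a myosin heavy chain made by *Myh11*, on smooth muscle actins, and on phosphorylation of the myosin regulatory light chain by the kinase made by *Mylk*. Transcription of most contractile genes is driven by serum response factor (SRF), which binds the CArG box in their promoters and is joined there by the coactivator myocardin, made by *Myocd*. Vascular smooth muscle cells can lower this program and take up a so-called synthetic state, a change known from injured arteries and from culture.

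Values are log2 signals, so a difference of 1 is a doubling, and differences are read between arrays for 1 gene. Signals of different genes are set only against the array median or added up within a list. A change was called at a Benjamini-Hochberg adjusted p under 0.05 in limma together with a fold above 1.2, which is 0.26 on the log2 scale. With 3 arrays against 3, an exact permutation test of 1 gene cannot give a p below 0.1, so the tests rest on the fit over all probe sets. Array medians lay between 6.76 and 6.80, while the 75th percentile was 9.07 to 9.15 in K+-free DMEM, 9.08 to 9.13 in ouabain and 9.24 to 9.27 in control. The arrays of a group correlated at 0.996 to 0.998 across probe sets. In RNA from a whole culture, fewer cells that express a gene and less RNA of it per cell cannot be told apart.

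In ouabain, 8 of the 9 contractile genes were called lower than in control and 0 were called higher, where 32.5% of all probe sets were called, 16.8% lower and 15.8% higher. *Lmod1* fell most, by 1.61 on the log2 scale, and *Myh11* followed at 0.69. The ninth gene, *Tagln*, passed the p threshold but not the fold limit. In K+-free DMEM 4 of the 9 were called lower (*Actg2*, *Cnn1*, *Myh11* and *Lmod1*) and 0 higher, where 33.9% of all probe sets were called, 17.9% lower and 16.1% higher. These shares include probe sets without a gene symbol. With the fit limited to the 15097 probe sets with 1 symbol, 3345 were called lower and 2620 higher in ouabain. In K+-free DMEM that fit called 3551 lower and 2641 higher. The median difference of the 9 genes was -0.19 in K+-free DMEM and -0.33 in ouabain, beside medians over all genes of 0.05 in K+-free DMEM and 0.06 in ouabain.

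**Figure D1:**
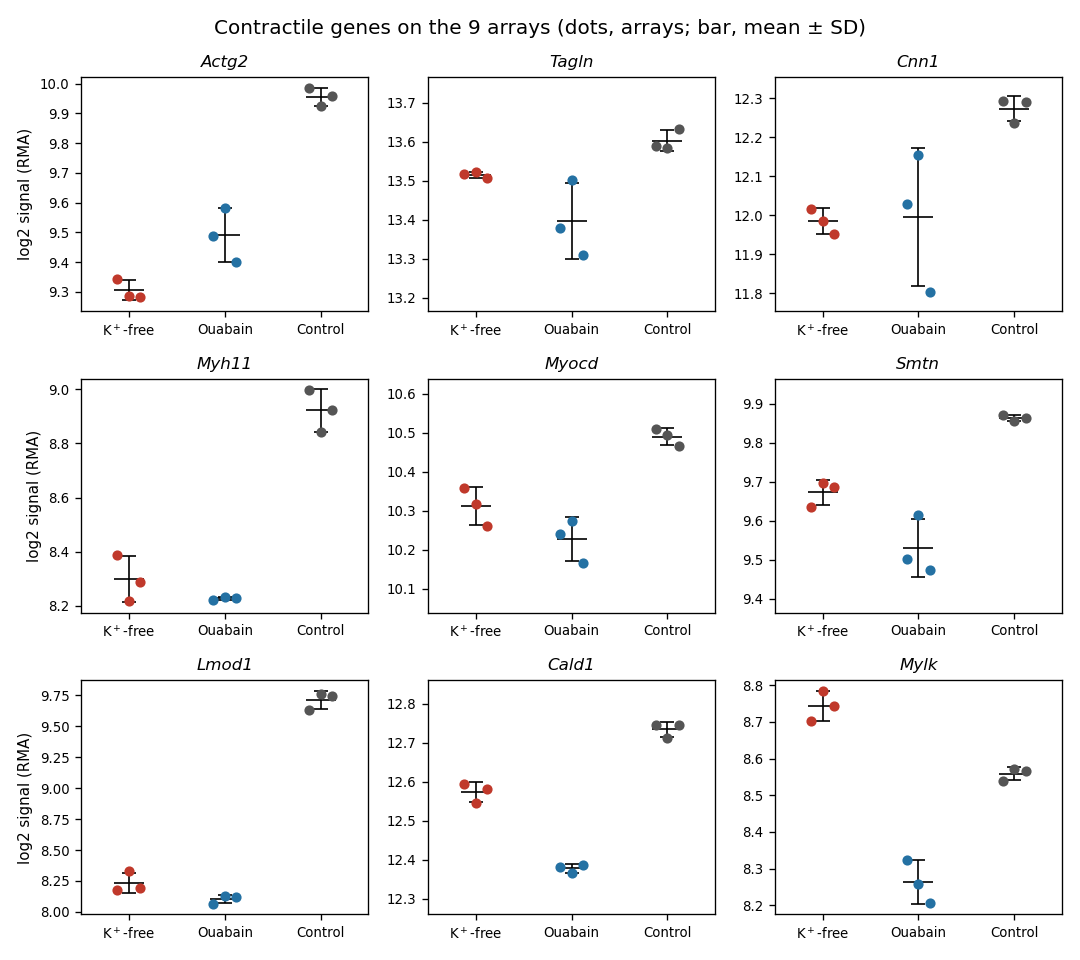
Log2 signal (vertical axis, one scale per gene) of the 9 contractile genes on each array, in K+-free DMEM, ouabain and control from left to right; dots are arrays and bars are means with SD (n = 3). All ouabain arrays lie below all control arrays for the 9 genes, and *Mylk* is the gene whose K+-free arrays, at 8.70 to 8.78, lie above control.

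*Myh11* (probe set 10731247), the smooth muscle myosin heavy chain of the thick filament, stood at 8.39, 8.22 and 8.29 in K+-free DMEM, at 8.22, 8.23 and 8.23 in ouabain, and at 9.0, 8.84 and 8.92 in control. Every treated array was below every control array, and the 2 treatments overlapped. The difference from control was -0.62 in K+-free DMEM (SE 0.06, adjusted p = 5.69e-06). It was -0.69 in ouabain (SE 0.06, adjusted p = 2.64e-06), a level 1.62-fold lower. Over the alternative scalings and fits, the difference of *Myh11* ran from -0.78 to -0.43 in K+-free DMEM and from -0.85 to -0.49 in ouabain. *Actg2* (probe set 10863549), the γ smooth muscle actin, had signals of 9.34, 9.29 and 9.28 in K+-free DMEM, 9.49, 9.58 and 9.40 in ouabain, and 9.99, 9.93 and 9.96 in control. The 3 groups were fully separate, with K+-free DMEM lowest. *Actg2* fell by 0.65 in K+-free DMEM (adjusted p = 2.46e-06), and with ouabain by 0.47 (adjusted p = 4.26e-05). The actins are nearly identical in their coding sequence, so a probe set of one may read RNA of another, and the *Actg2* values are uncertain in that respect.

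*Lmod1* (probe set 10764214) makes leiomodin, which nucleates actin filaments in smooth muscle. Its signals were 8.18, 8.33 and 8.19 in K+-free DMEM, 8.06, 8.13 and 8.12 in ouabain, and 9.63, 9.77 and 9.74 in control. Treated and control arrays were more than 1 log2 unit apart, while the arrays of each group spanned far less. *Lmod1* was 2.79-fold lower in K+-free DMEM (log2 difference -1.48, SE 0.06, adjusted p = 8.24e-09) and 3.05-fold lower in ouabain (-1.61, SE 0.06, adjusted p = 6.88e-09).

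Caldesmon, made by *Cald1* (probe set 10854446), binds actin and tropomyosin and restrains the myosin ATPase. It read 12.60, 12.55 and 12.58 in K+-free DMEM, 12.38, 12.37 and 12.39 in ouabain, and 12.75, 12.71 and 12.75 in control. The groups did not overlap, and K+-free DMEM lay between ouabain and control. *Cald1* fell by 0.36 in ouabain (SE 0.045, adjusted p = 6.19e-05), whereas its difference of -0.16 in K+-free DMEM passed the p threshold (adjusted p = 0.0139) but not the fold limit. The probe set spans the gene, so the heavy caldesmon of smooth muscle and the light form of other cells were not separated.

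*Cnn1* (probe set 10908596) makes calponin, another actin-binding protein that restrains myosin in smooth muscle. Signals were 12.02, 11.99 and 11.95 in K+-free DMEM, 12.03, 12.15 and 11.80 in ouabain, and 12.29, 12.24 and 12.29 in control. All treated arrays were below control, and the ouabain arrays were the most spread of any member (SD 0.178). Calponin was lower by similar amounts in both treatments, at -0.29 in K+-free DMEM (95% interval -0.46 to -0.11, adjusted p = 0.0113) and -0.28 in ouabain (-0.45 to -0.10, adjusted p = 0.0141). Without the third ouabain array the ouabain difference was -0.18 and no longer called.

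*Smtn* (probe set 10777972) makes smoothelin, an actin-associated protein of contractile smooth muscle. It stood at 9.64, 9.70 and 9.69 in K+-free DMEM, at 9.50, 9.61 and 9.47 in ouabain, and at 9.87, 9.86 and 9.86 in control. The groups were separate in that order, with ouabain lowest. *Smtn* fell by 0.33 in ouabain (SE 0.052, adjusted p = 0.000317), and its difference of -0.19 in K+-free DMEM (adjusted p = 0.0118) was under the fold limit.

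*Tagln* (probe set 10917034), which makes the actin-binding protein SM22α, gave 13.52, 13.52 and 13.51 in K+-free DMEM, 13.38, 13.50 and 13.31 in ouabain, and 13.59, 13.59 and 13.63 in control. Its treated arrays lay below control by small amounts. The difference was -0.21 in ouabain (adjusted p = 0.0121), under the fold limit, and -0.09 in K+-free DMEM (95% interval -0.21 to 0.04, adjusted p = 0.23). In the values as deposited these were the smallest differences from control among the 9 genes.

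*Mylk* (probe set 10754510), the myosin light chain kinase, was the one member that differed in sign between the treatments. It read 8.70, 8.78 and 8.74 in K+-free DMEM, 8.32, 8.26 and 8.21 in ouabain, and 8.54, 8.57 and 8.57 in control. Control lay between the 2 treatments, and no arrays of different groups overlapped. In ouabain *Mylk* fell by 0.30 (SE 0.051, adjusted p = 0.000641). In K+-free DMEM its difference was 0.18 (adjusted p = 0.0124), which is under the fold limit. When the values were quantile-normalized once more, these differences became 0.38 in K+-free DMEM (adjusted p = 0.000284) and -0.08 in ouabain (adjusted p = 0.326), so the difference from control depends on the scaling of the arrays in both treatments. The locus also makes a long nonmuscle kinase and telokin, a short protein without kinase activity, and this probe set does not tell them apart.

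*Myocd* (probe set 10743652), the SRF coactivator, had signals of 10.36, 10.32 and 10.26 in K+-free DMEM, 10.24, 10.27 and 10.16 in ouabain, and 10.51, 10.49 and 10.47 in control. Both treatments lay below control and overlapped each other. *Myocd* fell in ouabain (log2 difference -0.26, SE 0.052, adjusted p = 0.00159), just past the fold limit, and the call was lost without the first or the second control array or the third ouabain array. Its difference in K+-free DMEM, -0.18 (adjusted p = 0.016), was under that limit.

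**Figure D2:**
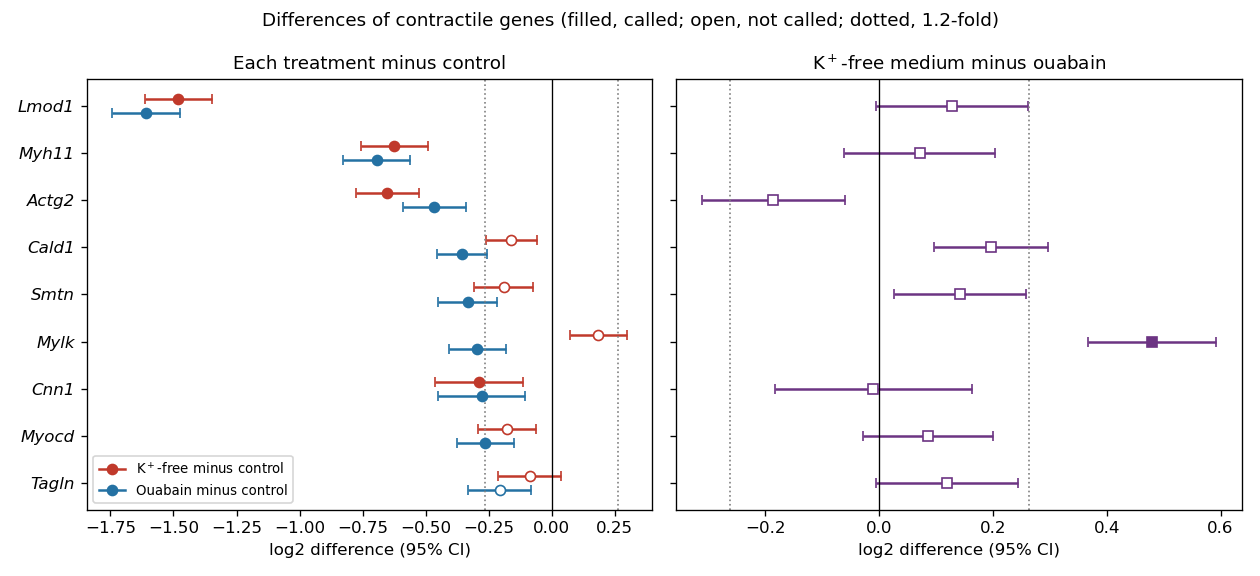
Log2 difference (horizontal axis) of each contractile gene with its 95% confidence interval from limma. The left panel shows K+-free DMEM and ouabain, each minus control, and the right panel K+-free DMEM minus ouabain. Filled points were called, open points were not, and dotted lines mark the 1.2-fold limit. *Lmod1* is farthest from 0, at -1.48 and -1.61, and *Mylk* is the single filled point on the right, at 0.48.

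Set against each other, the treatments left 1 of the 9 genes called, *Mylk*, which was 1.39-fold higher in K+-free DMEM than in ouabain (log2 difference 0.48, SE 0.051, adjusted p = 5.28e-05). In this comparison 16.4% of all probe sets were called, 8.45% higher and 7.97% lower. *Cald1* was higher in K+-free DMEM by 0.20 (adjusted p = 0.00909) and *Actg2* lower by 0.19 (log2 difference -0.19, adjusted p = 0.0373), both under the fold limit. The other 6 genes had adjusted p-values from 0.0832 to 0.96. Their 95% intervals were -0.06 to 0.20 for *Myh11*, -0.18 to 0.16 for *Cnn1* and 0.03 to 0.26 for *Smtn*, the last of which excludes 0 before adjustment. The median difference of the 9 genes was 0.12, beside -0.01 over all genes.

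By overlap of single arrays, the ouabain arrays were all below the control arrays for 9 of 9 genes, where 54.2% of all probe sets did not overlap, 21.5% with ouabain below and 32.7% with it above. The K+-free arrays were all below control for 8 of 9 genes and all above for *Mylk*, where 57.1% of all probe sets did not overlap, 24% below and 33% above. Between the treatments 6 of the 9 genes did not overlap, 5 with K+-free DMEM above and *Actg2* with it below, where 32.4% of all probe sets did not overlap, 15.4% with K+-free DMEM above and 16.9% below. Within the ouabain group the second array was the highest for 7 of the 9 genes and the third the lowest for 6, and the SD of a gene over its 3 arrays ran from 0.0045 to 0.178 there. It ran from 0.0083 to 0.085 in K+-free DMEM and from 0.0077 to 0.078 in control. Summed on the linear scale, the 9 genes gave 25436 to 25860 in K+-free DMEM, 22487 to 25105 in ouabain and 28874 to 29648 in control.

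SRF, the factor that the contractile promoters share, was itself lower. *Srf* stood at 9.85, 9.99 and 9.86 in K+-free DMEM, at 9.97, 10.14 and 9.93 in ouabain, and at 10.27 on all 3 control arrays. Treated arrays were below control in every case. *Srf* fell by 0.37 in K+-free DMEM (adjusted p = 0.000665), and its difference of -0.25 in ouabain (adjusted p = 0.00853) was under the fold limit. *Mrtfa* and *Mrtfb*, the myocardin-related coactivators, are not analysed here. Of the 8 measured genes listed with SRF and its cofactors, 4 were called higher in each treatment, namely *Fhl2*, *Csrp2*, *Gata6* and *Tead1*. *Csrp1* was called lower in both, and *Fhl1* and *Srf* in K+-free DMEM. Of all probe sets, 16.1% were called higher and 17.9% lower in K+-free DMEM, against 15.8% and 16.8% in ouabain. The LIM protein gene *Csrp1*, abundant in smooth muscle, fell by 0.75 in K+-free DMEM (adjusted p = 1.51e-06), and with ouabain by 0.68 (adjusted p = 4.12e-06). The related *Csrp2* was higher by 0.41 in K+-free DMEM (0.25 and not called on *B2m* scaling) and by 0.90 in ouabain. *Fhl2*, a LIM protein that binds SRF, was higher by 0.83 in K+-free DMEM and 1.02 in ouabain.

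The CArG box is printed because SRF binds it, and it was looked for in 300 bases around transcript starts in RefSeq (assembly GRCr8), 250 before and 50 after. Its pattern reads the same on both strands. An exact box stood in 1.64% of 33469 promoters of all genes, and a box with at most 1 mismatch in 21.3%. Windows were held for *Acta2*, *Actg2*, *Cnn1*, *Smtn*, *Cald1* and *Mylk*, and none for *Tagln*, *Myh11*, *Myocd* and *Lmod1*. The 6 genes held 0 exact boxes, while 3 of them (*Acta2*, *Smtn* and *Cald1*) held boxes with 1 mismatch, shown in capitals from 5′ to 3′ on the strand of the gene.
*Acta2*, chr1:241172618-241172647 on the minus strand, 134 bases before the transcript start: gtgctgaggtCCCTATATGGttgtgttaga
*Acta2*, chr1:241172568-241172597 on the minus strand, 84 bases before the transcript start: tgtctttgctCCTTGTTTGGgaagcgagtg
*Smtn*, chr14:82644605-82644634 on the minus strand, 110 bases before the transcript start: aggggcggggCCTAAAATTGaattttccca
*Cald1*, chr4:64233006-64233030 on the plus strand, in 1 of 2 windows of this gene and 245 bases before the transcript start of that window, which lies inside the annotated gene: ttcaaGCTTTTTAGGacttggtttt
These matches describe the letters of the windows only, and boxes in introns or farther upstream were not searched.

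Genes known to restrain the contractile program held the largest rises among its regulators. *Klf4* and *Klf5* make Krüppel-like factors, of which KLF4 represses myocardin-dependent transcription and KLF5 is tied to the synthetic state. *Klf4* read 10.10, 10.08 and 10.08 in K+-free DMEM, 9.65, 9.77 and 9.45 in ouabain, and 8.28, 8.28 and 8.35 in control. It was 3.44-fold higher in K+-free DMEM (log2 difference 1.78, adjusted p = 9.33e-09) and 2.49-fold higher in ouabain (1.32, adjusted p = 9.44e-08). *Klf5* was at 9.04, 9.16 and 8.95 in K+-free DMEM, at 8.62, 8.84 and 8.63 in ouabain, and at 6.98, 6.95 and 6.82 in control. The groups were separate for both genes, with K+-free DMEM highest. *Klf5* was 4.39-fold higher in K+-free DMEM (2.13, adjusted p = 4.15e-09) and 3.43-fold higher in ouabain (1.78, adjusted p = 1.83e-08). Between the treatments *Klf4* was higher by 0.46 (adjusted p = 0.000836) and *Klf5* by 0.36 (adjusted p = 0.00682) in K+-free DMEM. In the methods' t-test neither of these passed (adjusted p = 0.0564 for *Klf4* and 0.102 for *Klf5*). Each of these genes had 2 probe sets. With the probe sets of a gene averaged, the *Klf5* difference between the treatments was 0.23, under the fold limit.

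Across the 12 listed repressors, 3 were called higher and 3 lower in K+-free DMEM, and 6 higher and 2 lower in ouabain, with a median of 0.15 in K+-free DMEM and 0.29 in ouabain. Scaling each array on *B2m*, the reference gene of the study's RT-PCR, turned the split to 3 higher and 4 lower in K+-free DMEM (median -0.01) and 4 higher and 3 lower in ouabain (median 0.14). Repeated quantile normalization gave 5 higher and 2 lower in K+-free DMEM and 7 higher and 2 lower in ouabain. In the values as deposited, 33.9% of all probe sets were called in K+-free DMEM and 32.5% in ouabain. *Yy1*, a zinc finger factor that can displace SRF, was higher by 0.99 in K+-free DMEM (adjusted p = 2.01e-08), and with ouabain by 0.73 (adjusted p = 2.14e-07). *Hey2* and *Hdac5* were called lower in both treatments. The mean of *Hey2* was 11.92 in K+-free DMEM, 11.81 in ouabain and 12.41 in control. That of *Hdac5* was 8.59 in K+-free DMEM, 8.81 in ouabain and 9.25 in control. *Msx1*, a homeobox repressor, was higher by 0.45 in ouabain (adjusted p = 0.000101), and K+-free DMEM differed from ouabain by -0.73 (adjusted p = 1.05e-05). Its difference of -0.27 in K+-free DMEM (adjusted p = 0.0040) was -0.08 (adjusted p = 0.294) after repeated quantile normalization, and that call was also lost on array medians (-0.26) and without the first control array (-0.24), the second K+-free array (-0.26) or the third K+-free array (-0.25).

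**Figure D3:**
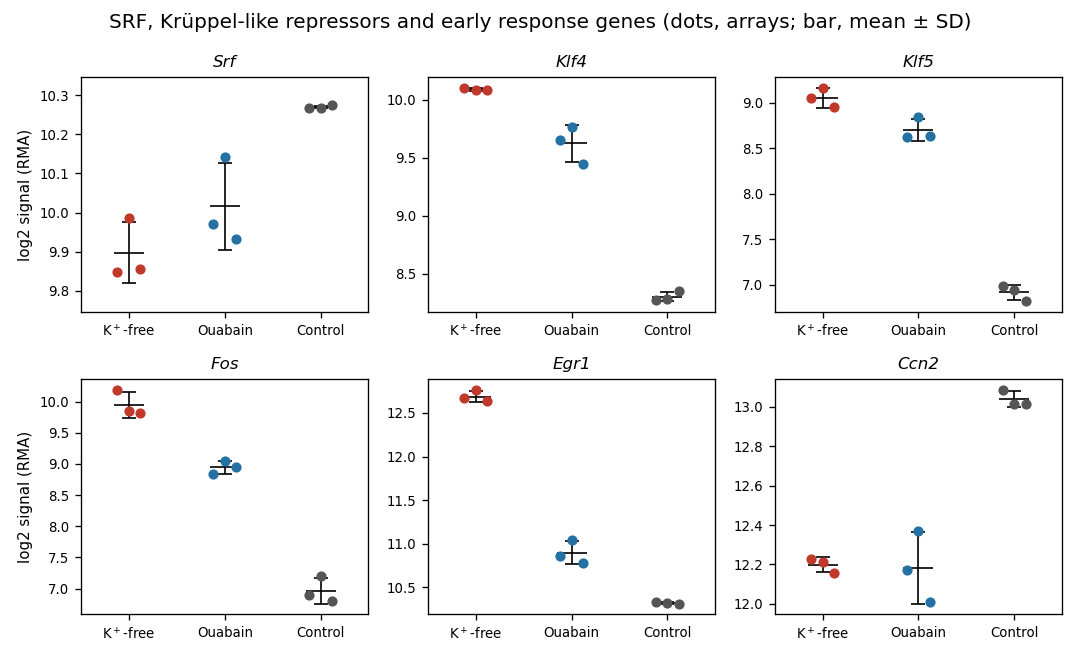
Log2 signal (vertical axis, one scale per gene) of *Srf*, *Klf4*, *Klf5*, *Fos*, *Egr1* and *Ccn2* on each array in K+-free DMEM, ouabain and control from left to right; dots are arrays and bars are means with SD (n = 3). *Srf* and *Ccn2* lie lower on all treated arrays than in control, and *Klf4*, *Klf5*, *Fos* and *Egr1* lie higher, with *Egr1* at 12.63 to 12.76 in K+-free DMEM and 10.78 to 11.04 in ouabain.

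SRF also drives early response genes. Serum and growth factors induce some of these, such as *Fos* and *Egr1*, within minutes through ternary complex factors rather than myocardin. Of 8 measured genes listed as early response targets of SRF, 7 were called higher and 1 lower in each treatment. Their median was 1.89 in K+-free DMEM and 0.49 in ouabain. On *B2m* scaling 5 stayed higher in K+-free DMEM and 4 in ouabain. As deposited, 16.1% of all probe sets were called higher in K+-free DMEM and 15.8% in ouabain. *Fos* gave 10.18, 9.85 and 9.81 in K+-free DMEM, 8.84, 9.05 and 8.94 in ouabain, and 6.90, 7.20 and 6.80 in control. It was 7.91-fold higher in K+-free DMEM (adjusted p = 6.98e-09) and 3.95-fold higher in ouabain (adjusted p = 1.55e-07). *Egr1* was 5.15-fold higher in K+-free DMEM and 1.49-fold higher in ouabain. Between the treatments *Fos*, *Egr1*, *Egr2*, *Ier2* and *Junb* were called higher in K+-free DMEM, by 1.00 to 1.83 on the log2 scale. The other 3 of the 8 genes were not called in this comparison, where 8.45% of all probe sets were called higher. The gene that fell was *Ccn2*, which makes connective tissue growth factor. Its difference was -0.84 in K+-free DMEM (adjusted p = 5.36e-06) and -0.86 in ouabain (adjusted p = 5.1e-06).

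Of 18 measured genes of the smooth muscle cytoskeleton outside the contractile set, 9 were called lower and 2 higher in K+-free DMEM, and 10 lower and 2 higher in ouabain, with a median of -0.18 in K+-free DMEM and -0.29 in ouabain. Over all probe sets, 17.9% were called lower in K+-free DMEM and 16.8% in ouabain. *Nexn*, which makes the actin-binding nexilin, read 8.75, 8.40 and 8.34 in K+-free DMEM, 8.76, 8.62 and 8.91 in ouabain, and 10.37, 10.24 and 10.41 in control. It was 3.59-fold lower in K+-free DMEM (-1.84, adjusted p = 1.03e-07) and 2.98-fold lower in ouabain (-1.58, adjusted p = 4.06e-07). The adaptor gene *Sorbs2* was 2.55-fold lower in K+-free DMEM and 2.54-fold lower in ouabain. *Pdlim7* fell by 1.03 in K+-free DMEM and by 0.81 in ouabain, and *Vcl*, which makes the adhesion protein vinculin, by 0.37 in K+-free DMEM and by 0.57 in ouabain. The tropomyosin gene *Tpm1* fell by 0.28 in ouabain (adjusted p = 0.000507) but differed by -0.01 in K+-free DMEM (adjusted p = 0.886), and the treatments differed by 0.27 (adjusted p = 0.00146), a difference that fell to 0.26 and under the fold limit without the first or the third K+-free array or the third ouabain array. The genes called higher in both treatments were *Aoc3* and *Ckb*. On *B2m* scaling *Aoc3* kept its call in K+-free DMEM only and *Ckb* in neither (0.12 in K+-free DMEM and 0.25 in ouabain), and the K+-free call of *Ckb* was also lost on reference genes (0.23) and without the first K+-free array (0.23) or the third control array (0.26). *Myl9*, the regulatory light chain itself, had a difference of 0.13 in K+-free DMEM (adjusted p = 0.0651) and 0.03 in ouabain (adjusted p = 0.706), and *Des*, which makes desmin, was below the array median in control at 5.63.

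**Figure D4:**
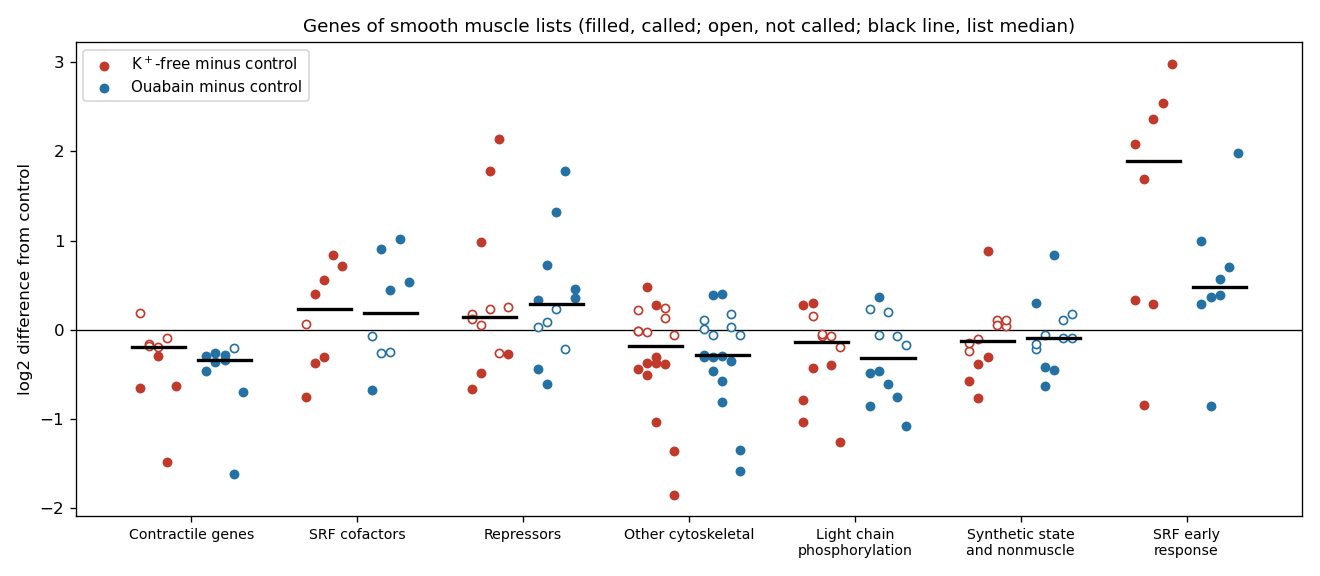
Log2 difference from control (vertical axis) of each measured gene in 7 gene lists, with K+-free DMEM minus control left of ouabain minus control in each list. Filled dots were called, open dots were not, and black lines are list medians, which lie at -0.19 and -0.33 for the contractile genes and at 1.89 and 0.49 for the SRF early response targets.

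Genes that set the phosphorylation of the light chain were called lower more often than higher in both treatments. Of 12 measured, 5 were called lower and 2 higher in K+-free DMEM, and 6 lower and 1 higher in ouabain, and on *B2m* scaling 0 were called higher in either. As deposited, 33.9% of all probe sets were called in K+-free DMEM, 17.9% lower, and 32.5% in ouabain, 16.8% lower. *Dapk3*, which makes a kinase of the light chain, fell by 1.26 in K+-free DMEM (adjusted p = 1.67e-08), and with ouabain by 1.08 (adjusted p = 5.71e-08).

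Between the treatments, 3 of the 12 measured light chain phosphorylation genes were called higher in K+-free DMEM than in ouabain and 2 lower. In this comparison 16.4% of all probe sets were called, 8.45% higher and 7.97% lower. Both measured targeting subunits of the phosphatase that removes the phosphate were among the genes called higher. The catalytic subunit was not called in that comparison. *Ppp1r12b*, a targeting subunit, had signals of 7.96, 7.87 and 7.94 in K+-free DMEM, 7.20, 7.40 and 7.48 in ouabain, and 8.05, 7.92 and 7.93 in control. The ouabain arrays lay below the rest, and K+-free DMEM overlapped control. *Ppp1r12b* fell by 0.61 in ouabain (adjusted p = 4.5e-05) and was 1.48-fold higher in K+-free DMEM than in ouabain (0.56, adjusted p = 0.000229). The other targeting subunit, *Ppp1r12a*, stood at 11.21, 10.96 and 11.07 in K+-free DMEM, at 10.79, 10.58 and 10.79 in ouabain, and at 10.76, 10.80 and 10.77 in control. It was called higher in K+-free DMEM by 0.31 (adjusted p = 0.0062) and higher than in ouabain by 0.36 (adjusted p = 0.00455). The first of these calls was lost without the first K+-free array (0.24) and when arrays were centred on *B2m* or the reference genes or quantile-normalized again. The second was lost in the methods' t-test (adjusted p = 0.108). *Ppp1r14a*, which makes the phosphatase inhibitor CPI-17, fell by 0.40 in K+-free DMEM (adjusted p = 0.00066), and with ouabain by 0.76 (adjusted p = 4.18e-06), and was higher by 0.36 in K+-free DMEM than in ouabain (adjusted p = 0.00287). The K+-free call of *Ppp1r14a* was lost after repeated quantile normalization (-0.25). Its call between the treatments was lost in the methods' t-test (adjusted p = 0.0721). *Ppp1cb*, the catalytic subunit, differed by 0.28 in K+-free DMEM (adjusted p = 0.000894), by 0.23 in ouabain (adjusted p = 0.00344) and by 0.05 between the treatments (adjusted p = 0.621). Its call in K+-free DMEM was lost on *B2m* (0.12), on reference genes (0.23), after repeated quantile normalization (0.26) and without the second K+-free array (0.26). The calmodulin gene *Calm2* was called lower in K+-free DMEM than in ouabain (-0.27), and lost that call without the second or the third K+-free array or the first or the second ouabain array (-0.28 to -0.19), on reference genes, with the 6 arrays alone, in the ordinary analysis of variance and in the methods' t-test.

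**Figure D5:**
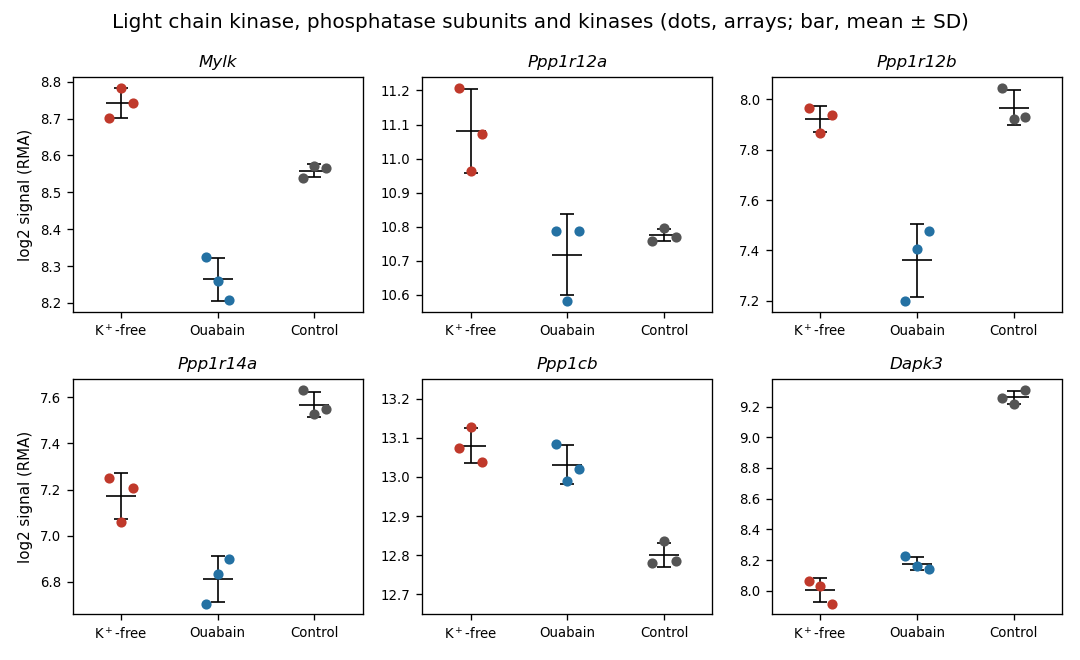
Log2 signal (vertical axis, one scale per gene) of *Mylk*, *Ppp1r12a*, *Ppp1r12b*, *Ppp1r14a*, *Ppp1cb* and *Dapk3* on each array in K+-free DMEM, ouabain and control from left to right; dots are arrays and bars are means with SD (n = 3). *Mylk*, *Ppp1r12a*, *Ppp1r12b* and *Ppp1r14a* lie higher in K+-free DMEM than in ouabain on all arrays, and *Dapk3* lies far below control in both.

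Genes that mark the synthetic state or nonmuscle cells were called in both directions. Of 12 measured, 4 were called lower (*Actg1*, *Myh10*, *Mgp* and *Lgals3*) and 1 higher (*Cd44*) in K+-free DMEM, and 3 lower (*Actg1*, *Myh10* and *Mgp*) and 2 higher (*Cd44* and *Lgals3*) in ouabain. The share of all probe sets called was 33.9% in K+-free DMEM and 32.5% in ouabain. *Cd44*, a hyaluronan receptor, was higher by 0.89 in K+-free DMEM (adjusted p = 4.04e-07), and with ouabain by 0.84 (adjusted p = 6.97e-07). *Lgals3*, which makes galectin 3, was lower by 0.58 in K+-free DMEM (log2 difference -0.58, adjusted p = 1.32e-05), and K+-free DMEM differed from ouabain by -0.87 (adjusted p = 2.65e-06). Its difference of 0.30 in ouabain (adjusted p = 0.00231) lost its call on *B2m* (0.14), on reference genes (0.24), after repeated quantile normalization (0.22) and without the second control array (0.26). The cytoplasmic γ actin gene *Actg1* fell by 0.76 in K+-free DMEM (adjusted p = 1.34e-05), and with ouabain by 0.42 (adjusted p = 0.00148). Of its 6 probe sets these values are from the brightest, which may also read RNA of other actins. *Mgp*, which makes an inhibitor of calcification, fell by 0.39 in K+-free DMEM and by 0.62 in ouabain.

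The means of all 9 contractile genes were above the array median in every group, but so were most fibroblast and pericyte markers, of which 2 of 10 in K+-free DMEM, 3 in ouabain and 2 in control were below it. Among the markers of other cell types, 7 of 7 endothelial genes in K+-free DMEM, and 6 of 7 in ouabain and in control, were below the array median. Their linear sum was 455 to 479 in K+-free DMEM, 458 to 484 in ouabain and 448 to 458 in control. *Esam* was called lower in both treatments. *Cdh5* was called higher in both at low signal and in neither on *B2m* scaling (0.13 in K+-free DMEM and 0.25 in ouabain). *Nos3* was called higher in ouabain by 0.26, a call lost on *B2m* (0.11) and without the first control (0.21), the first ouabain (0.24) or the third ouabain array (0.22), while *Tie1* differed by 0.15 in K+-free DMEM and 0.14 in ouabain. Leukocyte markers summed to 782 to 880 in K+-free DMEM, 1124 to 1203 in ouabain and 590 to 658 in control, and 3 of 8 were called higher in each treatment, namely *Cd68*, *Cd14* and *Csf1r*. Over all probe sets, 33.9% were called in K+-free DMEM, 16.1% higher, and 32.5% in ouabain, 15.8% higher. On *B2m* scaling *Cd14* lost its call in K+-free DMEM (0.27, adjusted p = 0.0697) and *Csf1r* in ouabain (0.18). *Ptprc*, which defines leukocytes, was at 5.59 in control, below the array median, with a difference of 0.07 in K+-free DMEM and 0.08 in ouabain. The part of such cells in the contractile results was not tested.

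Fibroblast and pericyte markers summed to 27542 to 28174 in K+-free DMEM, 25145 to 27937 in ouabain and 25767 to 26453 in control. In K+-free DMEM 4 of 10 were called higher (*Pdgfra*, *Lum*, *Rgs5* and *Abcc9*) and *Cspg4* lower, and in ouabain *Rgs5* was called higher and *Cspg4* and *Kcnj8* lower. The shares called over all probe sets were 33.9% in K+-free DMEM and 32.5% in ouabain. On *B2m* scaling *Lum* lost its call in K+-free DMEM (0.13) and *Rgs5* in ouabain (0.18). *Pdgfra* was higher by 1.30 in K+-free DMEM (adjusted p = 2.34e-08) against a difference of -0.06 in ouabain (adjusted p = 0.457). *Col1a1* differed by less than 0.01 in K+-free DMEM (adjusted p = 0.989), and with ouabain by 0.01 (adjusted p = 0.947), and *Pdgfrb* by -0.16 in K+-free DMEM and -0.14 in ouabain. Among 14 striated muscle genes, *Myh1* and *Myh2* were called lower in both treatments and *Ryr2* higher in ouabain, a call lost on *B2m* scaling (0.23). *Myh1*, a skeletal myosin heavy chain, read 9.68 to 9.76 in K+-free DMEM, 9.65 to 9.70 in ouabain and 10.95 to 11.07 in control, and it shares sequence with other myosin heavy chains. *Acta1*, a skeletal actin close in sequence to the smooth muscle actins, differed by -0.05 in K+-free DMEM and -0.23 in ouabain and was not called. Of the 10 reference genes, *Hprt1* was called higher in both treatments and *Tbp* in ouabain. The ouabain calls were lost on *B2m* (0.12 for *Hprt1* and 0.21 for *Tbp*), and that of *Hprt1* also without the third control (0.20) or the third ouabain array (0.23), while *B2m* differed by 0.16 in K+-free DMEM (adjusted p = 0.0129) and 0.15 in ouabain (adjusted p = 0.0163).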

How the data were processed

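The authors deposited log2 signals of 27342 probe sets on 9 Rat Gene 1.0 ST arrays. The submitters' processing notes name RMA and Partek, with versions not given in the sources used here, while the methods also describe MAS5 values and GeneSpring, and state a larger number of samples per group than the 3 labelled ones used here. The array number limits the precision. Probe sets were named with the platform annotation: 15097 had 1 gene symbol, 323 several and 11922 none, and 15067 of those with 1 symbol matched a RefSeq gene. Where a gene had several probe sets, the one with the highest mean over all arrays was used.

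A mean for each condition was fitted on all 9 arrays with limma 3.58.1 (R 4.3.3; data.table version 1.17.8), with moderated variance (4.59 prior degrees of freedom) and Benjamini-Hochberg adjustment over all probe sets of each of 3 contrasts. The fit was tested on simulated data with planted changes. The methods state that control and treated cells were handled in parallel within each experiment. The labels give replicate numbers but do not say that equal numbers mark the same experiment. Replicate numbers were not used as pairs in the main fit, and a replicate block was fitted as an alternative. Deviations of same-numbered arrays correlated at -0.05 to 0.31, against -0.28 to 0.16 for other pairs. The contractile genes and the other gene lists were chosen with earlier results of these data known. Named genes were the 10 contractile genes, *Srf* and its myocardin-related coactivators, up to 4 called genes of largest change per list, the 3 brightest genes of each marker list, and *B2m*, and some light chain phosphorylation genes that the rule selects are not reported here. Also named, after their values were seen, were *Tead1*, *Fhl1*, *Hey2*, *Msx1*, *Aoc3*, *Ckb*, *Tpm1*, *Myl9*, *Des*, *Ppp1r12a*, *Ppp1r12b*, *Ppp1cb*, *Calm2*, *Ccn2*, *Junb*, *Myh10*, *Cdh5*, *Ptprc*, *Pdgfra*, *Rgs5*, *Abcc9*, *Cspg4*, *Kcnj8* and *Ryr2*. A list of 10 smooth muscle microRNAs had 0 measured genes by the single-symbol rule, so they are not analysed here. The paper itself lists *Mir143* and *Mir145* among the transcripts that were lower in both treatments. Motifs were searched and figures drawn with Python 3.11.15 and matplotlib 3.10.9.

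Results were recomputed with a repeated quantile normalization, after centring each array on its median, on *B2m* or on the reference genes, without dim probe sets, with single-symbol probe sets alone, with a replicate block, on just the 6 arrays compared, with trended and robust moderation, by ordinary analysis of variance, by the methods' t-test, without a fold limit or with one of 1.5, with a gene's probe sets averaged, and without each array in turn.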

Additional observations from a re-analysis of the deposited data

How the results depend on the processing

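The count of contractile genes lower in ouabain was 8 as reported, 2 with a fold limit of 1.5, and 6 to 8 when single arrays were left out. *Myocd* lost its call without the first control (-0.25), the second control (-0.26) or the third ouabain array (-0.23), and when arrays were centred on medians (-0.25), and *Cnn1* without the third ouabain array (-0.18) and in the methods' t-test (adjusted p = 0.119). The count lower in K+-free DMEM was 4 as reported, 4 without any single array, 3 with a fold limit of 1.5 (without *Cnn1*), and 7 when centred on *B2m* or with no fold limit. *B2m* centring added *Cald1* (-0.32), *Myocd* (-0.34) and *Smtn* (-0.35), and in ouabain *Tagln* (-0.36). The count higher in K+-free DMEM was 0 as reported and 1 with repeated quantile normalization or with no fold limit, the gene being *Mylk*. Between the treatments the count higher in K+-free DMEM was 1 as reported, 0 at a fold limit of 1.5 and 2 with none, and the count lower was 0 as reported and 1 with none. Leaving out single arrays changed none of the other counts. With a replicate block, 8 genes were lower in ouabain and 4 in K+-free DMEM, *Mylk* was the 1 gene higher in K+-free DMEM than in ouabain, and the block changed no other count of contractile genes.

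Centring on *B2m* shifted the median of all probe sets to -0.10 in K+-free DMEM and -0.08 in ouabain, against 0.06 and 0.07 as deposited, and the calls to 2375 higher and 7059 lower in K+-free DMEM (4391 and 4890 as deposited) and 2166 higher and 6223 lower in ouabain (4312 and 4583 as deposited). Of the contractile genes' values with all arrays kept, 353 kept their side of the threshold, 13 gained a call, 11 lost one and 1 changed sign. That was *Cnn1* between the treatments (0.00210 centred on reference genes, -0.106 to 0.0690 without single arrays).

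Other values that changed sign were near 0. Centred on *B2m*, *Col1a1* was at -0.157, *Myl9* at -0.025, *Ptprc* at -0.0865 and *Tie1* at -0.00554 in K+-free DMEM, and *Col1a1* at -0.145, *Myl9* at -0.125, *Ptprc* at -0.0740 and *Tie1* at -0.0119 in ouabain. Centred on reference genes, *Col1a1* was at -0.0468 in K+-free DMEM and -0.0527 in ouabain, and *Myl9* at -0.0327 in ouabain. With repeated quantile normalization, *Acta1* was at 0.0567, *Col1a1* at -0.0458, *Kcnj8* at 0.0209, *Ppp1r12b* at 0.147 and *Ptprc* at -0.00813 in K+-free DMEM, and *Col1a1* at -0.0220, *Myl9* at -0.0339, *Pdgfra* at 0.0755 and *Ptprc* at -0.0151 in ouabain. Without single arrays, *Col1a1* ran from -0.0187 to 0.0216, *Kcnj8* from -0.135 to 0.0526 and *Tpm1* from -0.0220 to 0.0140 in K+-free DMEM, and *Col1a1* from -0.0826 to 0.103, *Myl9* from -0.00742 to 0.0642 and *Ppp1r12a* from -0.0908 to 0.0120 in ouabain. The cause of these changes was not tested.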
